A study of Mus musculus with 6 samples.

Results

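The genes described here encode the enzymes that write and erase methyl and acetyl groups on histones and other proteins: the Kdm lysine demethylases, the Hdac deacetylases, the Sirt sirtuins, the Setd SET-domain methyltransferases and the Kat acetyltransferases. They were taken by gene symbol, as every row of the count table whose symbol begins with Kdm, Hdac, Setd or Kat and the number (for Setd also the letter b) of a numbered family member, or is one of Sirt1 to Sirt7. This gave 47 of 23337 genes: 16 Kdm, 11 Hdac, 7 Sirt, 10 Setd and 3 Kat genes. Of these, 46 had at least 10 reads in at least 3 libraries and were tested. The symbols are those of the deposited table, so Setd8 is the gene now called Kmt5a, and acetyltransferases that the table lists under older names (Myst1 to Myst4, for example) are not among the 3 Kat genes.

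RNA sequencing compared primary sinusoidal endothelial cells from mouse liver under cyclic stretch with unstretched cells. The stretch group has 3 libraries (replicates 1, 2 and 4) from cells strained by 4% at 1 Hz in a Flexcell device, a plate system with a flexible base, and the control group has 3 libraries (replicates 2, 3 and 4) from unstretched cells. Both groups were isolated with immunomagnetic beads, grown in endothelial medium with fetal bovine serum, plated on collagen IV and deprived of serum before the experiment. The sources used here do not give the strain, sex and age of the mice or the time under stretch. The labels do not say that the replicates are separate cultures or animals, so the p-values measure the spread between these libraries, which may be technical.

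Methyl groups on histone lysines mark active or silent chromatin depending on the residue: trimethylation of H3K4 lies at active promoters, that of H3K27 and H3K9 at repressed genes, and that of H3K36 over transcribed gene bodies. Jumonji-domain demethylases use oxygen and 2-oxoglutarate, Kdm1 enzymes use FAD, sirtuins use NAD, and the classical deacetylases use zinc. In endothelial cells the class IIa deacetylases are known as corepressors of MEF2 transcription factors that leave the nucleus when phosphorylated, among other signals under flow and VEGF.

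The stretch libraries held 58531652, 68489956 and 58503669 gene counts, and the control libraries held 57923937, 48948948 and 51221205; the totals differed at p = 0.1 in a two-sided exact permutation test, the smallest p that 3 against 3 allows. Levels are given as CPM, counts relative to library size after TMM scaling (a correction for library composition). Summed pan-endothelial markers lay between 7813 and 8603 CPM in stretch libraries and between 8174 and 9324 CPM in control libraries, so the labelled cell type was marked in all 6; 6 of 10 were called lower in stretch and none higher. Of 15 sinusoidal endothelial markers tested, 11 were called lower and 1 higher in stretch, and their sums were 7969 to 9312 CPM in stretch and 10399 to 11792 CPM in control libraries. Hepatocyte markers summed to 1009, 221 and 216 CPM in stretch replicates 1, 2 and 4, against 102 to 148 CPM in control libraries (14 of 18 called higher, none at 0 in every library). Macrophage markers summed to 113 to 153 CPM in stretch and 79.0 to 93.7 CPM in control libraries (7 of 9 tested called higher), and cholangiocyte markers to 155 to 178 CPM in stretch and 95.6 to 123 CPM in control libraries (3 of 7 called higher and 1 lower). Stellate cell markers summed to 71.4 to 117 CPM in stretch and 87.1 to 99.6 CPM in control libraries, with 1 of 11 called higher. Lymphocyte markers summed to at most 0.569 CPM and erythroid markers to at most 0.870 CPM, with 6 and 2 defining genes at 0. In these bulk libraries, fewer cells of a type and less RNA per cell cannot be told apart. The part of other cell types in the results below was not tested; results that rest on stretch replicate 1 are given with and without it.

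Across the 46 tested enzymes 5 transcripts rose and 16 fell under stretch. The demethylase gene Kdm6b rose most, and the tubulin deacetylase gene Hdac6 and the acetyltransferase gene Kat2b were among those that fell. A call required an adjusted p under 0.05 in the edgeR quasi-likelihood test, with Benjamini-Hochberg adjustment over 14274 genes and no minimum fold. The 5 that rose are 10.9% of the enzymes, against 21.3% of all genes tested, and the 16 that fell are 34.8%, against 22.5%. Together 21 of 46 were called (45.7%), against a background of 43.8%, so the share of calls was close to that of genes in general. No test was made between these shares. The changes were small: the median log2 fold change of the enzymes was -0.056, against -0.015 over all genes tested, and the median size of a change was 0.17, against 0.26. A called change of at least 1.5-fold occurred in 13.5% of all genes and in 1 enzyme, Kdm6b. These sizes were not compared at matched read counts, and estimates are less precise where counts are low. Errors after ± are SE for log2 fold changes, and SD over 3 libraries for CPM, RPKM and ratios.

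The 3 stretch and 3 control CPM values did not overlap in 8 enzymes that were higher and 19 that were lower in stretch. Over all genes 55.7% did not overlap, 26.6% with stretch higher and 29.1% with stretch lower. Without stretch replicate 1, the library with the highest hepatocyte marker sum, 4 enzymes were called higher and 13 lower. Over the leave-outs of each of the 6 libraries, between 4 and 6 were called higher and between 10 and 14 lower, with 10 lower without control replicate 2. The 13 enzymes called whichever library was left out were Kdm6b, Kdm1a, Kdm5c and Setd8, which rose, and Kdm4a, Kdm4b, Kdm6a, Hdac6, Hdac7, Hdac10, Sirt3, Setd7 and Kat2b, which fell. Of these only Kdm6b, Setd8, Kdm4b, Hdac6, Hdac7 and Kat2b were also called in a test against a minimum change of 1.2-fold. Scaling by library size alone gave 4 enzymes higher and 20 lower, in a split of 2092 higher and 4296 lower over all genes, against 3035 higher and 3217 lower with TMM. The authors' deposited table calls 38.6% of the same genes at an FDR under 0.05, and among the enzymes 5 higher and 13 lower; its fold changes have the same sign in all 46.

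**Figure D1:**
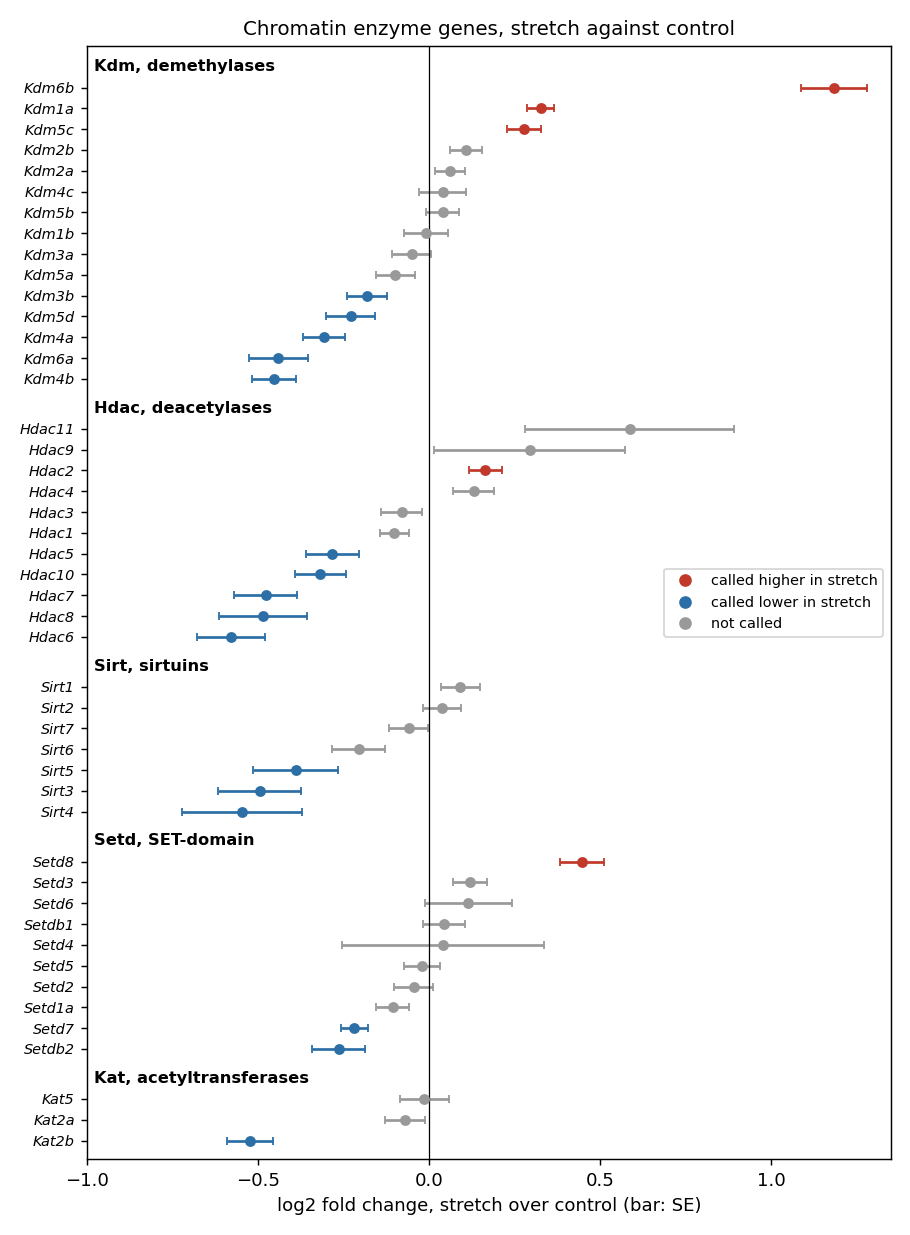
Log2 fold change of each of the 46 tested enzyme genes, stretch over control, grouped by family on the vertical axis; points are edgeR estimates, bars are 1 SE, and colour gives the call at an adjusted p under 0.05. Kdm6b stands alone on the right at 1.19, while Hdac6 at -0.58 lies furthest left.

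The promoters of 4 of the 13 enzymes that were called in every leave-out are shown, namely the 2 with the largest changes in each direction that the RefSeq table (GRCm38.p6) holds. Each runs from 250 bases before to 50 bases after the transcription start, 5′ to 3′ on the gene's strand. Capitals mark matches on either strand to the GC box GGGCGG, to CCAAT, to the AP-1 letters TGANTCA or to TGACG, the core of the CRE TGACGTCA, which contains it.
Setd8, chr5:124439680-124439979, plus strand: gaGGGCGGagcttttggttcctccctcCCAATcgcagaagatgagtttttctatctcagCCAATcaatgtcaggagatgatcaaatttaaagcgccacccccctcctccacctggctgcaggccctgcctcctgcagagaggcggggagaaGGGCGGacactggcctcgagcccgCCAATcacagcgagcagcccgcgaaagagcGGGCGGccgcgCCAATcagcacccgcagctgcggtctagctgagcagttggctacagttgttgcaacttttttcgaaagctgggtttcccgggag
Kdm1a, chr4:136602674-136602973, minus strand: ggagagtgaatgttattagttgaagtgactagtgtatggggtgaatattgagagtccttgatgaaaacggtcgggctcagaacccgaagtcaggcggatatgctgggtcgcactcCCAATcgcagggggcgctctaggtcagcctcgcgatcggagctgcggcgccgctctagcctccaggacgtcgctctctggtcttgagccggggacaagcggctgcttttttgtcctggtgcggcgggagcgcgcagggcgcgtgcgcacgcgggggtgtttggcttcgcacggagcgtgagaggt
Hdac6, chrX:7947840-7948139, minus strand: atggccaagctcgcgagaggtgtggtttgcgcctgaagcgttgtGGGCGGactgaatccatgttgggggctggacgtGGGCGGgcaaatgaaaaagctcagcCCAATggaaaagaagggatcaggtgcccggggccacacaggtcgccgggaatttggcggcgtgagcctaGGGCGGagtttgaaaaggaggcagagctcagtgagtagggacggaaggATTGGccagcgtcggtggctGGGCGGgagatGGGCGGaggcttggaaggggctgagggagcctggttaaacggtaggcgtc
Kat2b, chr17:53566721-53567020, plus strand: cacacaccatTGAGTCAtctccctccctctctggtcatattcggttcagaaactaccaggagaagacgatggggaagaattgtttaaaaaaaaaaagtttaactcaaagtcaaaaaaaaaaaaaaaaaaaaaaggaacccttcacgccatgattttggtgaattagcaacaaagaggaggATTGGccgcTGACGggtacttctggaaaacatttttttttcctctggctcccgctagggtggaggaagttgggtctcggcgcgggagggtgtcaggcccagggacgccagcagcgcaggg
Both a promoter of an enzyme that rose (Setd8) and one of an enzyme that fell (Hdac6) held 7 matches, all to the GC box or CCAAT. That of Kat2b is poorer in GC, at 47% of its bases, and holds an AP-1 and a TGACG match beside 1 CCAAT, whereas that of Kdm1a held 1 CCAAT alone.

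Promoters were in the RefSeq table for 39 of the 47 enzymes, 56 promoters in all. Their median GC content was 61.2%, against 52.7% for the 32851 promoters of the table. GC boxes occurred in 55.4% of them, against 35.7% of all promoters, and CCAAT in 44.6%, against 37.4%. TATAAA was found in 5.36%, against 13.6% of all. The AP-1 letters occurred in 12.5% (7.81% of all), those of the E-box CACGTG in 8.93% (7.15% of all), TGACG in 30.4% (20.8% of all), the ETS letters CCGGAAGT in 7.14% (3.89% of all), and the whole CRE in 0 of 56 (1.79% of all). Among called enzymes, the AP-1 letters lay in promoters of Kdm5c, which rose, and of Hdac7, Kat2b and Kdm4a, which fell. A match describes the letters in the window, not a site.

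The demethylases of H3K27 gave the largest change. Kdm6b (chr11:69398518-69413675, GRCm38), the JMJD3 demethylase that is known as an inducible gene of inflammatory signalling in macrophages, had 110.4, 82.8 and 97.4 CPM in the stretch libraries, against 44.0, 40.6 and 43.2 CPM in the control libraries (replicates 1, 2 and 4 of stretch and 2, 3 and 4 of control, an order kept throughout). Every stretch library lay above every control library, and the control values were close together. The mean was 96.9 ± 13.8 CPM in stretch and 42.6 ± 1.75 CPM in control libraries (SD, n = 3 each), a 2.27-fold difference with a log2 fold change of 1.19 ± 0.096 and an adjusted p of 8.05e-05 (edgeR quasi-likelihood test). It was 1.09 without stretch replicate 1 and 1.09 to 1.30 over all leave-outs. Summed macrophage markers were at 153, 113 and 134 CPM in the stretch libraries, and 7 of 9 tested were called higher. Most of that sum was Cd68 (92.1, 67.7 and 85.7 CPM), which was not called. The median log2 fold change of the 9 tested markers was 1.22, from 0.29 for Cd68 to 3.25 for Marco. The part of macrophages in the Kdm6b value was not tested.

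Kdm6a (UTX), the X-linked demethylase of the same mark and a subunit of the KMT2C and KMT2D complexes, fell. It had 26.0, 30.3 and 27.0 CPM in the stretch libraries, against 41.9, 34.98 and 36.2 CPM in the control libraries. The groups did not overlap, and the log2 fold change was -0.44 ± 0.085 with an edgeR adjusted p of 0.00364. The count of Kdm6b over that of Kdm6a was 4.25, 2.73 and 3.61 in stretch and 1.05, 1.16 and 1.19 in control libraries. Kdm6b thus had about as many counts as Kdm6a in the control libraries and more in every stretch library. Their summed level was 125 ± 11.6 CPM in stretch and 80.3 ± 5.202 CPM in control libraries.

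**Figure D2:**
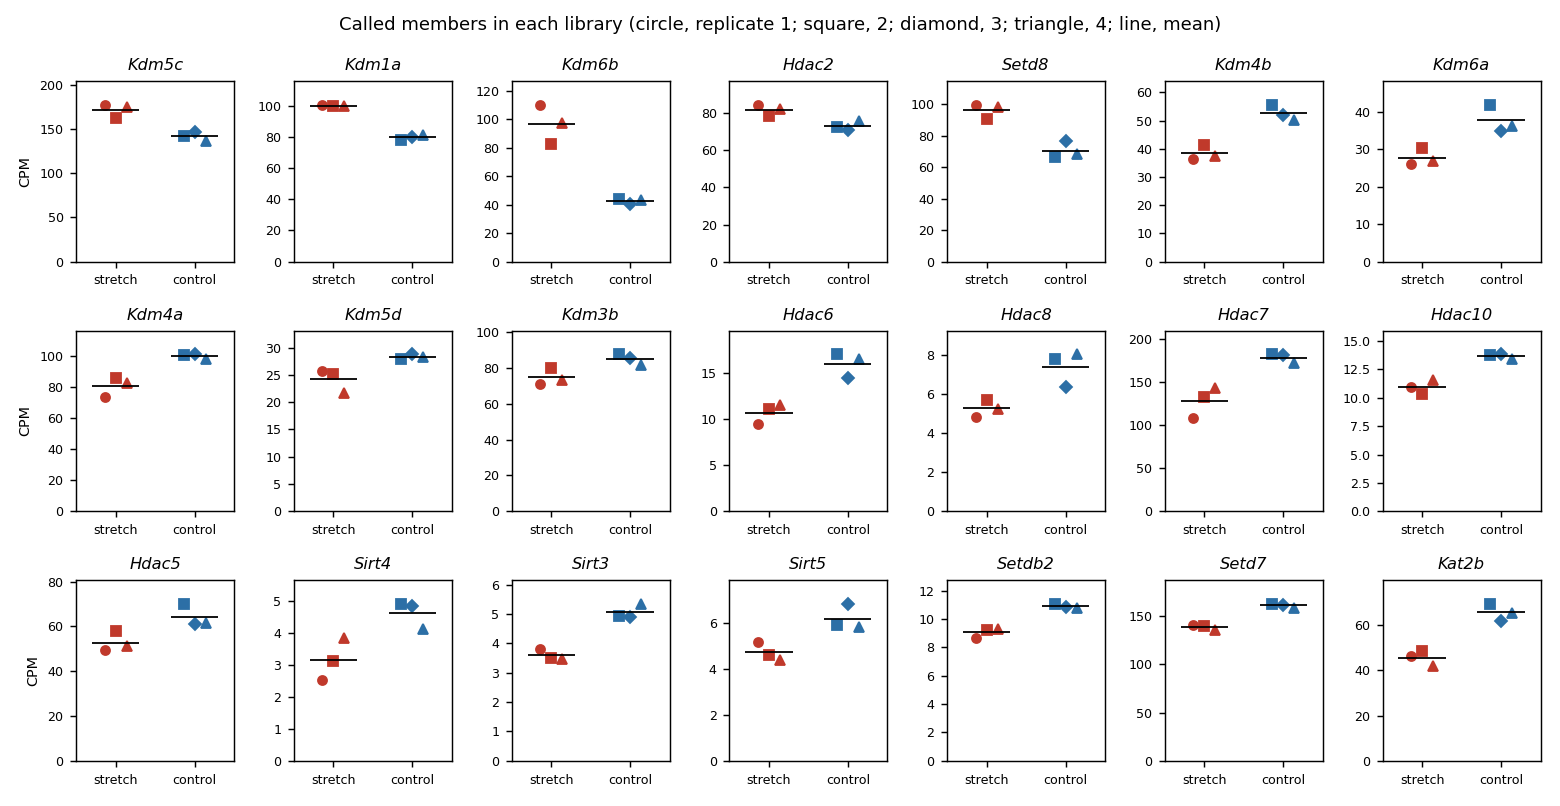
CPM of called enzyme genes in each library, stretch to the left of control in each panel; points are libraries (the marker's shape gives the replicate) and lines are means of 3 libraries. Kdm6b lies at 82.8 to 110.4 CPM in stretch and at 40.6 to 44.0 CPM in control libraries, while Kdm6a, Kat2b and Hdac7 lie lower in stretch.

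Among 6 H3K4 demethylases 2 rose and 1 fell. Kdm1a (LSD1), the FAD-dependent enzyme of the CoREST corepressor complex, had 101, 99.9 and 99.5 CPM in the stretch libraries, against 78.0, 79.9 and 81.4 CPM in the control libraries. The stretch libraries were nearly equal to each other and all above the control libraries. Kdm1a rose by 0.33 ± 0.041 on the log2 scale, with an edgeR adjusted p of 0.000420. Kdm5c, an X-linked demethylase of trimethylated H3K4, had 178, 162 and 175 CPM in the stretch libraries, against 142, 146 and 137 CPM in the control libraries, and rose by 0.28 ± 0.051 at an adjusted p of 0.00276 (edgeR). Its Y-linked counterpart Kdm5d had 25.7, 25.1 and 21.6 CPM in the stretch libraries, against 28.0, 28.8 and 28.2 CPM in the control libraries. Kdm5d fell by 0.23 ± 0.073 on the log2 scale, with an edgeR adjusted p of 0.0318, but was no longer called without stretch replicate 4 or control replicate 2, 3 or 4 (adjusted p 0.0735 to 0.0842). Kdm5c and Kdm5d have similar sequences, so reads could have been split between them, and the same holds for Kdm6a and its Y-linked counterpart Uty. The remaining members, Kdm1b (-0.010), Kdm5a (-0.099) and Kdm5b (0.039), did not pass the test.

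Of 5 tested demethylases of H3K9, 3 fell and none rose. Kdm4b, which acts on trimethylated H3K9, had 36.3, 41.4 and 37.4 CPM in the stretch libraries, against 55.7, 52.1 and 50.1 CPM in the control libraries. Every stretch library was below every control library, and the log2 fold change was -0.45 ± 0.064 with an edgeR adjusted p of 0.000787. Kdm4a, which acts on H3K9 and H3K36, had 73.4, 85.8 and 82.5 CPM in the stretch libraries, against 100.2, 101 and 98.1 CPM in the control libraries, again without overlap. It fell by 0.31 ± 0.061 on the log2 scale at an adjusted p of 0.00402 (edgeR). Kdm3b, which removes the lower methylation states of H3K9, had 70.8, 80.1 and 73.2 CPM in the stretch libraries, against 87.6, 85.4 and 81.4 CPM in the control libraries, a log2 fold change of -0.18 ± 0.058 with an edgeR adjusted p of 0.0323. That call was lost without stretch replicate 1 or 4 or control replicate 2 or 3 (adjusted p 0.0796 to 0.109). Kdm3a, a hypoxia-induced relative of Kdm3b, was at -0.051 and Kdm4c at 0.040, neither called.

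Kdm4d, known mainly from testis, did not pass the filter: it had 4, 5 and 6 reads in stretch and 10, 8 and 4 in control libraries. The tested enzyme with the fewest reads was Hdac9, with 46, 53 and 35 reads in stretch and 37, 27 and 35 in control libraries. The summed level of the H3K9 group was 345 ± 15.7 CPM in stretch and 391 ± 16.5 CPM in control libraries (SD, n = 3 each), a description with no test. Kdm2a and Kdm2b, which remove dimethylation of H3K36 and bind unmethylated CpG islands, were not called, at 0.061 and 0.11, although the 3 stretch values of Kdm2b were all above the control values. In the whole Kdm family 3 of 15 genes rose, 5 fell and 7 were not called, with a median of -0.010. The number that fell was 3 without control replicate 2, control replicate 3 or stretch replicate 4.

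Of 11 zinc-dependent deacetylases 1 rose and 5 fell, with a median log2 fold change of -0.10. In class IIa 2 of 4 fell. Hdac7, which is needed for the integrity of embryonic vessels in mice, had 109, 133 and 143 CPM in the stretch libraries, against 183, 182 and 172 CPM in the control libraries. All stretch values were below all control values. The log2 fold change was -0.48 ± 0.091 with an edgeR adjusted p of 0.00334, and it was -0.56 to -0.37 over the leave-outs. Hdac5, another MEF2 corepressor, had 49.3, 57.9 and 51.2 CPM in the stretch libraries, against 70.1, 61.2 and 61.5 CPM in the control libraries. It fell by 0.28 ± 0.077 on the log2 scale (edgeR adjusted p 0.0174) and was not called without stretch replicate 4 or control replicate 2 (adjusted p 0.0563 to 0.0639). Hdac4, of the same class, was at 0.13 ± 0.060 with stretch values above control values but an edgeR adjusted p of 0.110, and Hdac9 at 0.29 ± 0.28 was not called either. The summed class IIa level was 201 ± 19.9 CPM in stretch and 262 ± 9.23 CPM in control libraries.

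Both class IIb enzymes fell. Hdac6, the cytoplasmic deacetylase of tubulin, had 9.49, 11.1 and 11.6 CPM in the stretch libraries, against 17.1, 14.5 and 16.5 CPM in the control libraries. The groups did not overlap, and its change of -0.58 ± 0.10 on the log2 scale (edgeR adjusted p 0.00211) was the furthest below 0 among the enzymes tested. Hdac10, a polyamine deacetylase, had 10.99, 10.4 and 11.6 CPM in the stretch libraries, against 13.8, 13.8 and 13.5 CPM in the control libraries, and changed by -0.32 ± 0.074 at an adjusted p of 0.00880 (edgeR). Hdac11, the class IV enzyme, averaged 1.76 ± 0.139 CPM in stretch and 1.17 ± 0.486 CPM in control libraries. Its estimate of 0.59 ± 0.31 was uncertain and not called (edgeR adjusted p 0.155), except without control replicate 4, where it was 0.96 with an adjusted p of 0.0320.

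In class I 1 enzyme rose and 1 fell. Hdac2, a subunit with Hdac1 of the SIN3, NuRD and CoREST corepressor complexes, had 84.7, 78.5 and 82.4 CPM in the stretch libraries, against 72.6, 70.9 and 75.6 CPM in the control libraries, without overlap. Its increase was small, at 0.16 ± 0.048 and an edgeR adjusted p of 0.0245, and was not called without stretch replicate 1 or 4 or control replicate 2 or 3 (adjusted p 0.0651 to 0.0792) nor with scaling by library size alone (0.071). Hdac8, a deacetylase of the cohesin subunit SMC3, had 4.86, 5.72 and 5.26 CPM in the stretch libraries, against 7.79, 6.35 and 8.06 CPM in the control libraries. It fell, at a log2 fold change of -0.49 ± 0.13 and an edgeR adjusted p of 0.0155, and was not called without control replicate 2 or 4 (adjusted p 0.0598 to 0.0606). Hdac1 at -0.10 and Hdac3, the deacetylase of the NCoR complex, at -0.081 were not called, though all stretch values of Hdac1 were below those of the control. Of the Hdac family, 3 rather than 5 fell without control replicate 2, and none rose without control replicate 2 or 3 or stretch replicate 1 or 4, while 2 rose without control replicate 4.

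All 3 mitochondrial sirtuins fell, with a median log2 fold change of -0.50, and none of the 4 nuclear or cytosolic sirtuins was called. Sirt3, the main mitochondrial deacetylase, had 3.82, 3.49 and 3.47 CPM in the stretch libraries, against 4.94, 4.90 and 5.35 CPM in the control libraries. No stretch library reached a control library, and the change was -0.50 ± 0.12 with an edgeR adjusted p of 0.0111. Sirt4 had 2.55, 3.14 and 3.84 CPM in the stretch libraries, against 4.93, 4.85 and 4.15 CPM in the control libraries, and Sirt5, a desuccinylase, had 5.18, 4.61 and 4.39 CPM in the stretch libraries, against 5.93, 6.84 and 5.83 CPM in the control libraries. Neither pair of groups overlapped. Sirt4 changed by -0.55 ± 0.18 on the log2 scale (edgeR adjusted p 0.0342) and Sirt5 by -0.39 ± 0.12 (adjusted p 0.0328). The call of Sirt4 was lost without stretch replicate 1 or 2 or control replicate 2 or 3 (adjusted p 0.0772 to 0.108), and that of Sirt5 without stretch replicate 2 or 4 or control replicate 2, 3 or 4 (adjusted p 0.0524 to 0.110). As a result only 1 sirtuin was called lower without control replicate 3 or stretch replicate 2, and the authors' deposited table gives both an FDR above 0.05 (0.0678 for Sirt4 and 0.0923 for Sirt5).

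Together the mitochondrial sirtuins summed to 11.5 ± 0.235 CPM in stretch and 15.9 ± 0.639 CPM in control libraries (SD, n = 3 each). The nuclear Sirt1 was at 0.091 ± 0.058, the cytosolic tubulin deacetylase Sirt2 at 0.038 ± 0.056, the chromatin-bound Sirt6 at -0.21 ± 0.078 and the nucleolar Sirt7 at -0.060 ± 0.058. Sirt6 lay lower in every stretch library than in any control library and missed the threshold (edgeR adjusted p 0.0613); it was called without control replicate 2 (adjusted p 0.0456). Whether the mitochondrial and other sirtuins differ in their change was not tested.

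In the SET-domain family 1 of 10 genes rose and 2 fell, with a median of 0.011. Setd8, the enzyme that monomethylates H4K20, had 99.7, 90.5 and 98.1 CPM in the stretch libraries, against 66.3, 76.5 and 68.6 CPM in the control libraries. The groups were far apart for the spread within them, with a log2 fold change of 0.45 ± 0.065 and an edgeR adjusted p of 0.000897. Setd7, which monomethylates H3K4 and several other proteins, had 140.1, 139 and 135 CPM in the stretch libraries, against 163, 162 and 159 CPM in the control libraries. It fell by 0.22 ± 0.040 on the log2 scale, a small change with little spread (edgeR adjusted p 0.00283). Setdb2, an H3K9 methyltransferase, had 8.68, 9.24 and 9.28 CPM in the stretch libraries, against 11.1, 10.9 and 10.7 CPM in the control libraries, and its log2 fold change of -0.26 ± 0.077 had an edgeR adjusted p of 0.0227. It was not called without stretch replicate 1 or control replicate 2, 3 or 4 (adjusted p 0.0534 to 0.0752), which left 1 lower Setd gene, and the authors' deposited table gives it an FDR of 0.0895.

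The other 7 were not called. Setd2, which trimethylates H3K36, was at -0.045 ± 0.056, and Setdb1, which trimethylates H3K9, at 0.043 ± 0.063. The COMPASS enzyme Setd1a was at -0.11 ± 0.048, with stretch values all below control values. The actin histidine methyltransferase Setd3 was at 0.12 ± 0.049, with stretch values all above control values, and Setd6, which methylates RelA, at 0.11 ± 0.13. Setd5 was at -0.019 ± 0.053. Setd4, with 1.17, 1.44 and 0.978 CPM in stretch and 1.202, 0.791 and 1.495 CPM in control libraries, had an SE of 0.30 and gives little information at this depth.

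Of the 3 Kat acetyltransferases, Kat2b (PCAF), a catalytic subunit of the SAGA and ATAC coactivator complexes, fell. It had 46.5, 48.5 and 42.0 CPM in the stretch libraries, against 69.4, 62.0 and 65.5 CPM in the control libraries. There was no overlap, the log2 fold change was -0.52 ± 0.067 with an edgeR adjusted p of 0.000471, and it ranged from -0.56 to -0.46 over the leave-outs. Its paralog Kat2a (GCN5), which takes the same place in those complexes, had 40.0, 39.4 and 43.4 CPM in the stretch libraries, against 40.7, 44.1 and 44.1 CPM in the control libraries, a log2 fold change of -0.070 ± 0.058 that was not called (edgeR adjusted p 0.368). Kat5 (TIP60), the enzyme of the NuA4 complex, was at -0.014 ± 0.071. The annotation holds a processed copy of Kat2b, whose reads cannot be told apart from those of the gene where the sequences match.

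Paralogs were set against each other as ratios of counts within a library, which library scaling cannot alter. Kdm6b over Kdm6a averaged 3.53 ± 0.760 in stretch and 1.13 ± 0.0752 in control libraries (SD, n = 3 each). Kdm5c over Kdm5d averaged 7.15 ± 0.843 in stretch and 4.996 ± 0.130 in control libraries. Kat2b over Kat2a averaged 1.12 ± 0.137 in stretch and 1.53 ± 0.157 in control libraries. In these 3 pairs the groups did not overlap. Hdac2 over Hdac1, a closely related pair of class I, averaged 1.01 ± 0.0482 in stretch and 0.838 ± 0.0341 in control libraries, and Hdac7 over Hdac4 averaged 6.56 ± 0.873 in stretch and 10.01 ± 0.532 in control libraries. Kdm4b over Kdm4c averaged 1.08 ± 0.0610 in stretch and 1.53 ± 0.0608 in control libraries, and Setdb2 over Setdb1 averaged 0.220 ± 0.00911 in stretch and 0.272 ± 0.00812 in control libraries. These 4 pairs did not overlap either. Kdm6a over its Y-linked counterpart Uty averaged 1.60 ± 0.0975 in stretch and 1.74 ± 0.0767 in control libraries, with the groups nearly touching. The pairs were picked by hand, and all but Kdm6a over Uty set a called gene against an uncalled or oppositely called one. That choice favours groups that lie apart, and no share over other gene pairs was computed. The ratios describe unequal change within pairs and were not tested. They also depend on gene length, so they do not give the ratio of transcripts.

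**Figure D3:**
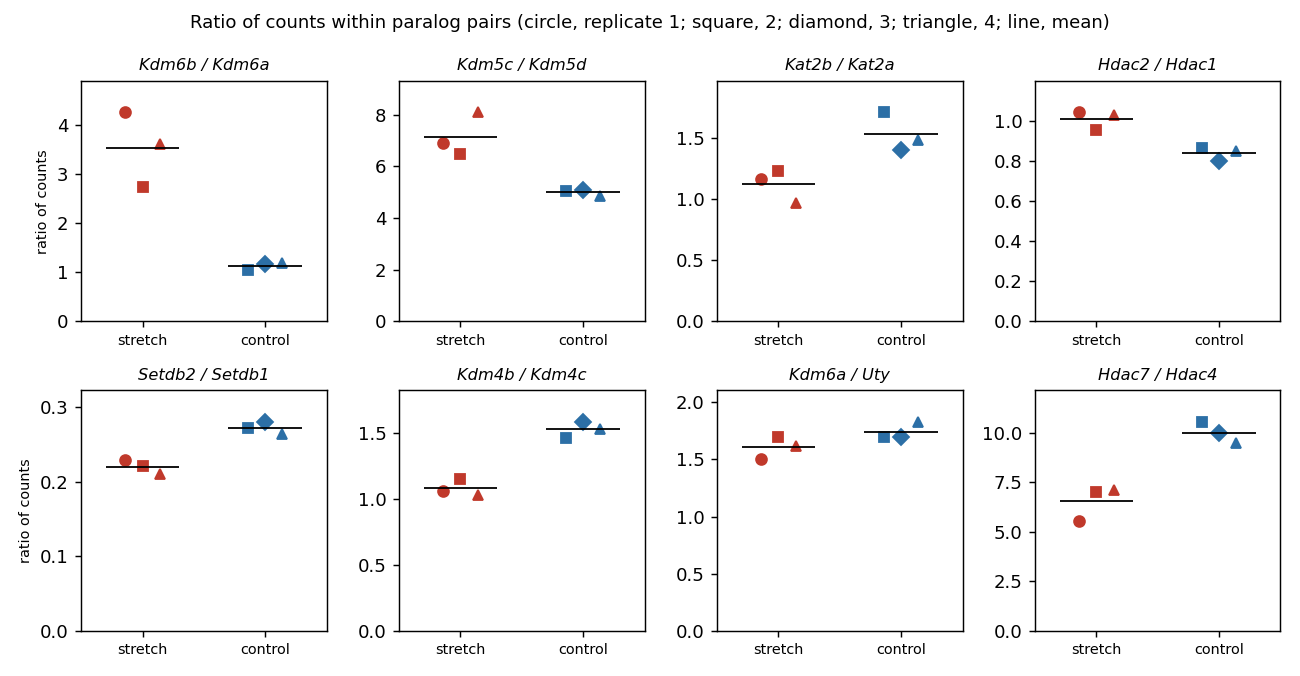
Ratio of counts of paired enzyme genes in each library, on axes from 0, stretch left of control; points are libraries (shape by replicate) and lines are means. Kdm6b over Kdm6a lies at 2.73 to 4.25 in stretch and at 1.05 to 1.19 in control libraries.

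Levels between genes were compared by the deposited RPKM, which divides by a length labelled as coding. That length is not limited to protein-coding bases: for the marker gene Maf it covers the whole gene model (3642 bases). Averaged over the 6 libraries, Sirt2 was the most abundant of all the enzymes at 73.4 RPKM and made up 65.0% of the sirtuin total, above Sirt7 at 15.5 and Sirt1 at 10.4 RPKM with no overlap of their ranges. The mitochondrial Sirt5, Sirt3 and Sirt4 were lowest, at 3.73, 2.56 and 2.02 RPKM; the ranges of Sirt5 and Sirt3 and of Sirt3 and Sirt4 overlapped, those of Sirt5 and Sirt4 did not, and Sirt5 also overlapped Sirt6 (5.30 RPKM). Among the deacetylases Hdac1 (39.6 RPKM), Hdac2 (35.7) and Hdac7 (28.8) led, with ranges that overlapped between Hdac1 and Hdac2 and between Hdac2 and Hdac7 but not between Hdac1 and Hdac7, followed by Hdac3 (16.2) and Hdac5 (14.3). Hdac11 at 0.541 and Hdac9 at 0.140 RPKM were scarce.

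In the Setd family Setd3 (34.4 RPKM) stood above Setd8 (28.0), and Setd8 above Setd7 (18.9) and Setd5 (17.9), the last pair with overlapping ranges. Kdm1a (27.5 RPKM), Kdm5c (23.0), Kdm3a (22.1) and Kdm2a (21.2) led the demethylases with ranges that overlapped from one to the next. Kdm6b, at 13.1 ± 1.65 RPKM in stretch and 6.11 ± 0.228 RPKM in control libraries (SD, n = 3 each), stood in the middle of its family. Kat2b lay at 7.92 to 9.44 RPKM in stretch libraries, below Kat2a (11.6 to 12.7) and Kat5 (10.4 to 12.4), and at 12.6 to 13.8 RPKM in control libraries, where its range overlapped those of Kat2a (12.5 to 13.99) and Kat5 (11.9 to 13.2). Summed over a family, CPM was 1192 ± 4.86 CPM in stretch and 1146 ± 34.3 CPM in control libraries for Kdm, 427 ± 21.4 CPM in stretch and 496 ± 5.45 CPM in control libraries for Hdac, 246 ± 10.6 CPM in stretch and 247 ± 3.01 CPM in control libraries for Sirt, 733 ± 8.68 CPM in stretch and 733 ± 16.2 CPM in control libraries for Setd and 119 ± 2.67 CPM in stretch and 142 ± 2.91 CPM in control libraries for Kat genes (no test). Unlike CPM, the deposited RPKM divides by a library total that is not TMM-scaled. TMM factors were 0.953 to 0.991 in stretch and 1.02 to 1.045 in control libraries, so RPKM is lower relative to CPM in stretch. The summed RPKM of Kdm genes went the other way from their CPM, at 188 ± 3.33 in stretch and 191 ± 1.89 in control libraries. That of Sirt genes was 109 ± 3.51 RPKM in stretch and 117 ± 3.38 RPKM in control libraries. RPKM sums were also lower in stretch for Hdac (139 and 162), Setd (142 and 144) and Kat genes (32.4 and 39.2).

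**Figure D4:**
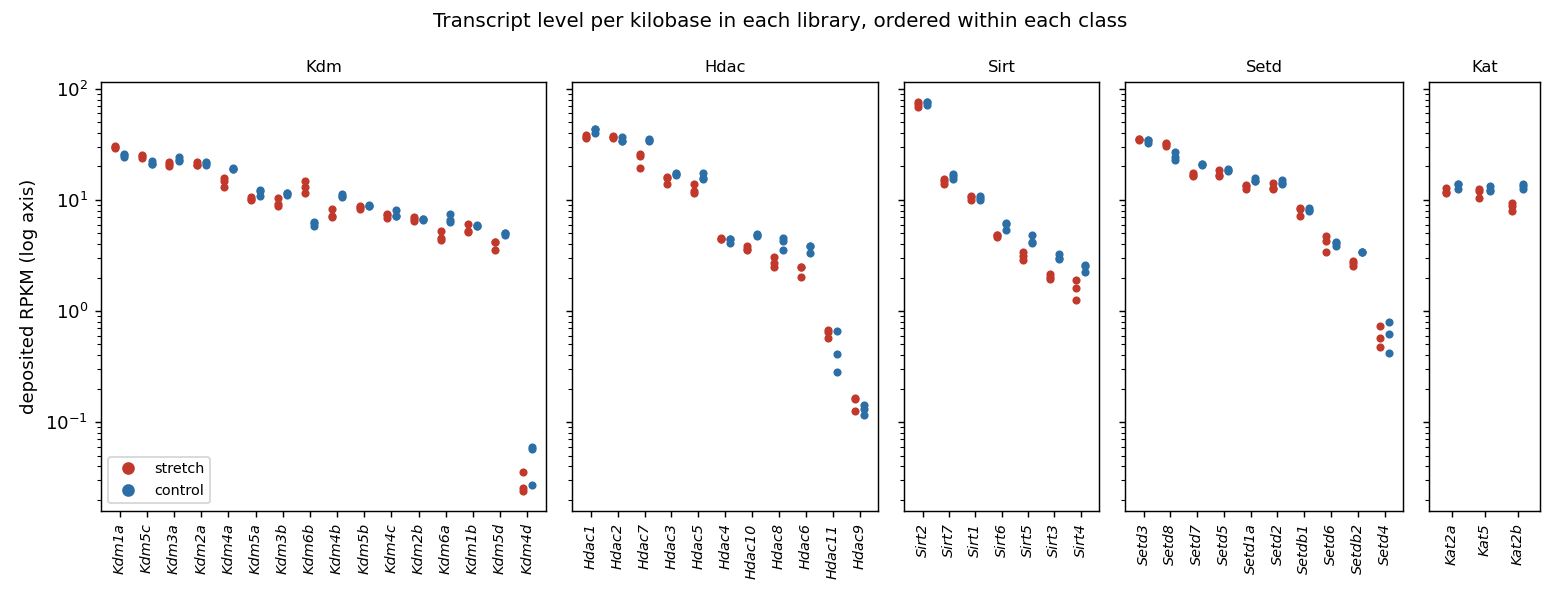
Deposited RPKM of every enzyme gene in each library, by family, on a log axis; points are libraries of the stretch and control groups. Sirt2 lies highest, at 68.1 to 76.3 RPKM, and Kdm4d lowest.

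In the annotation of this build (GENCODE M21), 5 of the 47 enzymes share at least 10% of their exonic bases with another gene: Setd1a (51.9%), Kdm3b (24.6%), Hdac4 (22.4%), Hdac11 (15.4%) and Kat5 (12.1%). Whether counting used strand is not given, so the reads of such overlaps cannot be assigned. Kdm3b is the only called enzyme among them.

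Genes that work with these enzymes were read from the same test, in which 21.3% of all genes rose and 22.5% fell. Of 14 Jumonji-domain genes listed under other symbols, not all of them established demethylases, 5 rose and 3 fell. On the log2 scale Mina rose by 0.72 ± 0.068, Jmjd6 by 0.61 ± 0.064 and Jmjd1c, a relative of Kdm3a, by 0.31 ± 0.049, with edgeR adjusted p of 0.000135, 0.000184 and 0.00127. Jarid2, a cofactor of the PRC2 complex, changed by -0.62 ± 0.13, Phf8 by -0.35 ± 0.077 and Uty by -0.33 ± 0.089, all lower in stretch (edgeR adjusted p 0.00607, 0.00715 and 0.0169); Uty was not called without stretch replicate 4 (adjusted p 0.0576). With scaling by library size alone 3 rose and 6 fell.

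Of 30 other histone methyltransferases 6 rose and 9 fell. Dot1l, the H3K79 methyltransferase, had 199.6, 148 and 188 CPM in the stretch libraries, against 62.2, 65.1 and 62.1 CPM in the control libraries. Its change of 1.497 ± 0.10 on the log2 scale, with an edgeR adjusted p of 5.40e-05, was a larger estimate than that of Kdm6b. Smyd5 (0.58 ± 0.096) and Prdm4 (0.35 ± 0.053) also rose. The fallen genes with the smallest p were Ehmt2 (G9a, -0.43 ± 0.044) and Ehmt1 (GLP, -0.31 ± 0.045), which together dimethylate H3K9, and Suv420h2 (-0.87 ± 0.10), which carries H4K20 beyond the monomethyl state made by Setd8. Library size alone gave 14 lower.

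Of 18 other acetyltransferases 4 rose and 4 fell. Naa50 (0.44 ± 0.055), the TFIIIC subunit Gtf3c4 (0.21 ± 0.047) and Mgea5 (0.19 ± 0.047), which is better known as the O-GlcNAcase, rose. Myst4 (-0.57 ± 0.060), Ncoa2 (-0.44 ± 0.078) and Ep300 (-0.22 ± 0.061), the coactivator p300, fell. Ep300 was not called without control replicate 2 or 3 or stretch replicate 1 or 4 (adjusted p 0.0506 to 0.0764), and in each of these leave-outs 2 genes of the list were lower. Library size alone gave 1 higher and 7 lower.

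Of 37 partners of the deacetylases in corepressor complexes 5 rose and 14 fell, with a median of -0.094. Phf21a, a reader of unmethylated H3K4 in the Kdm1a and CoREST complex, had the smallest p, with 18.9 ± 2.66 CPM in stretch and 37.3 ± 1.90 CPM in control libraries (SD, n = 3 each; log2 fold change -0.98 ± 0.099, edgeR adjusted p 0.000168). Ing2 (-0.85 ± 0.11) of the SIN3 complex and Tbl1xr1 (-0.59 ± 0.082) of the NCoR complex also fell. Sap30 (0.56 ± 0.085), Mier1 (0.26 ± 0.047) and Mta2 (0.19 ± 0.048) rose. The count that rose was 3 without control replicate 2, 3 or 4 or stretch replicate 1, and 2 with library size alone.

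Partners of the SET-domain enzymes were mostly not called (11 of 17). Wdr5, a core subunit of COMPASS and of acetyltransferase complexes, rose by 0.48 ± 0.052 (edgeR adjusted p 0.000215), as did Iws1 (0.26 ± 0.052), a partner of Setd2. Men1 (-0.48 ± 0.066), the Setdb1 cofactor Atf7ip (-0.38 ± 0.047) and Psip1 (-0.16 ± 0.051) fell, and Psip1 lost its call in each of the 6 leave-outs (adjusted p 0.0514 to 0.132). The number that fell was 4, but 2 without control replicate 3 or stretch replicate 1 or 4, and 7 with library size alone. Of 47 acetyltransferase complex subunits, 15 rose and 11 fell. Those with the smallest p were Wdr5, Ruvbl1 (0.46 ± 0.063) and Taf9 (0.38 ± 0.054) among the risen genes, and Phf17 (-1.15 ± 0.069), Yeats2 (-0.33 ± 0.057) and Phf20 (-0.41 ± 0.071) among the fallen ones. Without control replicate 2 these counts were 9 and 7, and without control replicate 4 the lower count was 7. Library size alone gave 7 higher.

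Among 26 partners and kinases of the class IIa deacetylases, 10 rose and 4 fell. Mef2a had 262, 220.0 and 233 CPM in the stretch libraries, against 159, 159 and 161 CPM in the control libraries, and rose by 0.58 ± 0.064 (edgeR adjusted p 0.000239). Mef2c, which mouse embryos need for heart and vessel development, had 23.3, 24.2 and 17.8 CPM in the stretch libraries, against 43.1, 35.2 and 45.8 CPM in the control libraries, and changed by -0.93 ± 0.13 (adjusted p 0.000772). The stretch and control values of both were apart, in opposite directions. The 14-3-3 proteins Ywhag (0.48 ± 0.053) and Ywhah (0.47 ± 0.053), which hold phosphorylated class IIa deacetylases in the cytoplasm, rose. The kinases Camk2g (-0.73 ± 0.067) and Camk4 (-1.499 ± 0.20) fell. Among other kinases of the list, Sik1 and Mark2 were called higher and Sik2 lower. Mark2 was not called without stretch replicate 1 or control replicate 3 or 4 (edgeR adjusted p 0.0901 to 0.111). With library size alone 6 genes of the list rose.

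**Figure D5:**
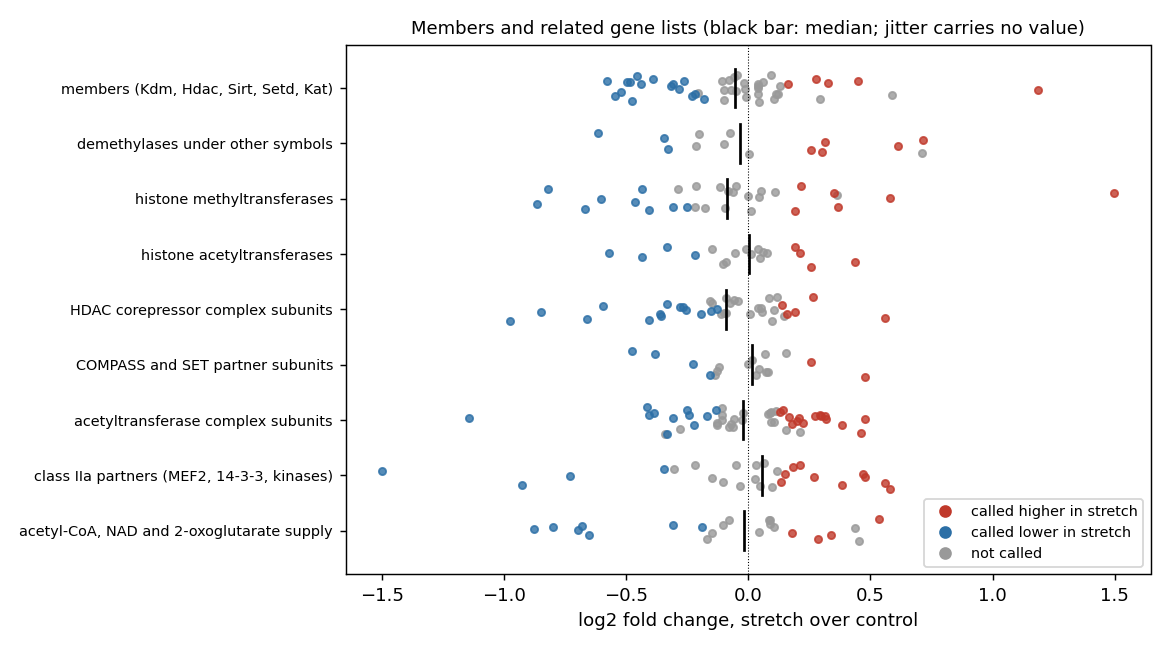
Log2 fold change, stretch over control, of the enzymes and of each list of related genes; points are genes coloured by call, the black bar is the list's median, and the vertical jitter carries no value; the bottom list holds genes of cofactor supply. Medians lie between -0.094 and 0.056, and Dot1l (1.497) and Camk4 (-1.499) are the outermost points. The list labelled as demethylases under other symbols holds Jumonji-domain genes, not all of them established demethylases.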

How the data were processed

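RNA was measured in 6 libraries (3 stretch, 3 control), grouped by the sample labels. Raw counts for each gene are the authors' deposited values. The submitters' processing notes list TopHat2 2.1.0, featureCounts, edgeR, GRCm38 and mm10 without roles, and the sources used here give neither filters nor strand setting. RPKM values, as deposited, are per kilobase of the length labelled as coding, with a total 7.41% to 8.90% above the summed counts. The authors' deposited comparison table gives log2 fold changes, a score (the likelihood ratio) and p-values with an FDR, per the file headers. Of counts between 1 and 10, 67.2% to 69.9% were even, against 49.6% to 50.9% of counts from 1000, and precision from counts may be overstated.

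Tests used edgeR 4.0.16 (R 4.3.3; TMM scaling, factors 0.953 to 1.045; quasi-likelihood F test for group; Benjamini-Hochberg adjustment over the 14274 genes with at least 10 reads in 3 libraries). The SE was the log2 fold change divided by the square root of F. The common biological coefficient of variation was 0.120. The code was tested on simulated data. All tested enzymes are named. Values per library are given for called enzymes with a log2 fold change of at least 0.5 in size. They are also given for at least the 2 smallest p per family. In each related list up to 3 called genes per direction are named, with further kinases among the class IIa partners. The enzymes and lists were chosen with earlier results of these data known. Alternatives were other scalings, filters and tests (DESeq2 1.42.0, limma 3.58.1), a replicate block and leaving out each library. No test was run on a list. Numbers 2 and 4 are shared by the groups; the labels do not tie them to a common isolation. Positions are on GRCm38.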

Additional observations from a re-analysis of the deposited data

How the results depend on the processing

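Over 18 alternatives the enzymes' values kept direction and side of the threshold in 742 cases, lost the call in 51, gained it in 7 and changed sign in 27, all of the last in uncalled genes. Other scalings with factors, other filters, DESeq2, limma-voom and robust dispersion gave 5 higher and 16 lower enzymes, and the edgeR exact test 5 and 15. A test against a minimum change of 1.2-fold gave 1211 higher and 1326 lower genes. Among the enzymes it gave 2 higher (Kdm6b and Setd8) and 4 lower (Kdm4b, Hdac6, Hdac7 and Kat2b). Leaving out 1 library gave 2382 to 3042 higher and 2428 to 2916 lower genes, and 4 to 6 higher and 10 to 14 lower enzymes. With the replicate number as a block, 2703 genes were higher and 2840 lower, and 4 enzymes were higher and 12 lower; Hdac2, Kdm3b, Setdb2, Sirt4 and Sirt5 were not called in that fit. Same-numbered libraries deviated together with r = 0.20 and 0.10 across genes (2 pairs), and since no label ties them the numbers were not taken as pairing. Log2 fold changes that changed sign were those of Kat5 (0.0042 with RLE factors and with DESeq2) and Kdm1b (0.0073 and 0.0076); with the block Kat5 (0.035), Kdm1b (0.039) and Setd4 (-0.16); with library size alone Kdm2a (-0.031), Kdm4c (-0.051), Kdm5b (-0.053), Setd4 (-0.049), Setdb1 (-0.048), Sirt2 (-0.056) and Sirt1 (-0.00019), where the median of all genes moved by -0.092; and over the leave-outs Kat5 (-0.069 to 0.057), Kdm1b (-0.062 to 0.037), Kdm3a (-0.084 to 0.00079), Setd2 (-0.080 to 0.0023), Setd4 (-0.17 to 0.26), Setd5 (-0.048 to 0.011), Setdb1 (-0.0012 to 0.11). Setd4, Hdac9 and Hdac11, all of low count, had SEs of 0.28 to 0.31, where small changes cannot be seen. The cause of these shifts was not tested.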

Other observations

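Enzymes that supply the cofactors of the writers and erasers were measured alongside them. Of 22 genes for acetyl-CoA, NAD, 2-oxoglutarate and S-adenosylmethionine, 4 rose, 7 fell and 11 were not called (edgeR quasi-likelihood test, Benjamini-Hochberg). Idh1, the cytosolic source of 2-oxoglutarate, had 57.5, 57.2 and 57.3 CPM in the stretch libraries, against 111, 106 and 100.2 CPM in the control libraries. The stretch values were almost equal and far below the control values, with a log2 fold change of -0.88 ± 0.048 and an adjusted p of 3.82e-05 (edgeR). D2hgdh, which turns 2-hydroxyglutarate into 2-oxoglutarate, fell as well (-0.70 ± 0.099), and so did Mat2b (-0.31 ± 0.063), a regulator of S-adenosylmethionine synthesis. The catalytic gene of that synthesis, Mat2a, rose, with 243 ± 10.1 CPM in stretch and 168 ± 15.1 CPM in control libraries (SD, n = 3 each) and a log2 fold change of 0.53 ± 0.069, as did Ahcy (0.28 ± 0.066), which clears S-adenosylhomocysteine, and the mitochondrial Idh3a (0.34 ± 0.057). No call of these 6 genes was lost when 1 library was left out.

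The Y-linked genes Kdm5d, Uty, Eif2s3y and Ddx3y had counts in all 6 libraries, and Xist was at most 0.138 CPM. Eif2s3y, a translation initiation factor gene, had 59.8, 54.4 and 56.7 CPM in the stretch libraries, against 49.9, 49.6 and 51.2 CPM in the control libraries and rose by 0.18 ± 0.049 on the log2 scale (edgeR adjusted p 0.0180), whereas the Y-linked demethylase genes Kdm5d and Uty fell and Ddx3y, an RNA helicase gene, was not called at 0.073 ± 0.14. Kdm5d was not called without stretch replicate 4 or any 1 control replicate (adjusted p 0.0735 to 0.0842), nor Uty without stretch replicate 4 (adjusted p 0.0576). Eif2s3y was not called without stretch replicate 1 or control replicate 2 or 3 (adjusted p 0.0533 to 0.0567), nor with library size alone (log2 fold change 0.087).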
